A study of Mus musculus with 2 samples.

Results

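The genes described here are 3 ligands of the vascular endothelial growth factor (VEGF) family, Vegfa, Vegfb and Pgf, and 5 receptors of the vessel wall, Kdr, Flt1, Nrp1, Tek and Tie1. They were taken by gene symbol and are 8 of the 31053 genes in the count matrices, and each symbol had 1 entry. Gene expression was measured by single-cell RNA sequencing in 2 libraries, 1 from pooled kidneys of young and 1 from pooled kidneys of old MRL-lpr mice, a strain whose Fas mutation leads to a lupus-like kidney disease with age. Both libraries carried the same genotype and no treatment is given, the labels state the ages only as young and old, and no count of pooled animals is given. The suspensions went through a density gradient, an enrichment kit for innate lymphoid cells and a sort for live cells before 3′ libraries were made, so the number of vessel or tubule cells says how many came through this preparation and not how many the kidney holds.

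After barcodes with under 200 genes or over 20% mitochondrial UMIs had been set aside, 11429 young cells with a median of 7881 unique molecular identifiers (UMIs) and 10232 old cells with a median of 6933 UMIs remained. Cells were clustered without the genes reported here, and clusters received names ending in "-like" from marker genes. Levels are CPM, a gene's UMIs in a group of cells scaled to all UMIs of that group, and the ranges in parentheses after a level or ratio are exact 95% intervals for counting error alone. With 1 library per age, no test between ages was possible, and age cannot be told apart from the library. No order between genes is read from CPM, since 3′ counts also differ by how well each transcript is captured. Xist was absent and at least 1 of 4 Y-linked genes present in 50.8% of young and 40.6% of old cells, although the study's methods describe female mice, and results that moved with this split are given with it.

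VEGF-A, made in the kidney above all by podocytes and tubule cells, binds the receptor tyrosine kinases KDR (VEGFR2), the main signalling receptor of endothelium, and FLT1 (VEGFR1), which binds VEGF-A tightly and signals weakly. VEGF-B and placental growth factor, the product of Pgf, bind FLT1 but not KDR, and neuropilin 1, the product of Nrp1, is a co-receptor for VEGF-A that also binds class 3 semaphorins. TEK (TIE2) is the receptor of the angiopoietins and TIE1 is its partner, and both keep vessels quiescent and tight.

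On GRCm38 (mm10), GENCODE M21 places Vegfa on chromosome 17 from 46016993 to 46032369, Vegfb on chromosome 19 from 6982473 to 6987651 and Pgf on chromosome 12 from 85166635 to 85177790, all on the minus strand. Kdr lies on chromosome 5 from 75932827 to 75978458, Flt1 on chromosome 5 from 147561604 to 147726011 and Tie1 on chromosome 4 from 118471191 to 118490061, also on the minus strand. Nrp1 lies on chromosome 8 from 128358604 to 128503363 and Tek on chromosome 4 from 94739289 to 94874976, both on the plus strand. The values count reads over whole genes and do not separate splice forms.

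Because Kdr, Flt1, Tek and Tie1 shared a narrow cell class in these libraries, the 250 bases before their RefSeq start sites are shown, read 5′ to 3′ on the strand of each gene. Capitals mark GGAA or its reverse TTCC, the core letters bound by ETS factors, a family that includes the endothelial factors Erg, Fli1 and Ets1.
Kdr, chr5:75978456-75978705, minus strand: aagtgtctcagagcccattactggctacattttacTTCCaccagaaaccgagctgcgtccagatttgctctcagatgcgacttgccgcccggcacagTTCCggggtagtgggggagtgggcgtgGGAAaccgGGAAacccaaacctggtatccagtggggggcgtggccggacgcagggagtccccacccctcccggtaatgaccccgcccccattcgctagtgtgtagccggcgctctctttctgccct
Flt1, chr5:147726012-147726261, minus strand: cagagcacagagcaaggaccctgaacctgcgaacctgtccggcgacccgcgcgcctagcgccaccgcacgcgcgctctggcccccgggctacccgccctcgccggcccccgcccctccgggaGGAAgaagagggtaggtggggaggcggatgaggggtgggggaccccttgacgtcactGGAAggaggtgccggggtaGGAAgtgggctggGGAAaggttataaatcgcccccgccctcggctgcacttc
Tek, chr4:94739039-94739288, plus strand: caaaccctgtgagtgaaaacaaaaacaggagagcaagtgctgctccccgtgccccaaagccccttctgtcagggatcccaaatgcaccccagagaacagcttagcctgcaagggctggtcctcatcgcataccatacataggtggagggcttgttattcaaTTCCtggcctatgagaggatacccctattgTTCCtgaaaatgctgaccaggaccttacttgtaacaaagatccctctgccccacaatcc
Tie1, chr4:118489850-118490099, minus strand: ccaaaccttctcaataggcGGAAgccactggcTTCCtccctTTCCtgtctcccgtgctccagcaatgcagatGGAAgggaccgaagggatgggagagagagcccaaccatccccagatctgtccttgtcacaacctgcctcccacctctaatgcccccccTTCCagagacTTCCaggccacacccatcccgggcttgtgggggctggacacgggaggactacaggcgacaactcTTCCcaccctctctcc
The Kdr and Flt1 windows held 4 matches each, the Tek window held 2 and the Tie1 window held 7. Among the other members, not shown, the Nrp1 window held 4, the Vegfa windows 6 and 2, the Vegfb window 1 and the Pgf windows 0. The matches therefore did not set these 4 genes apart. Of 32851 such windows from 27025 genes, 93.4% held at least 1 match on either strand and the median number was 3, and 8.69% held 6 or more. The hypoxia response core ACGTG, searched on both strands, was in none of the 4 windows shown and in 16.6% of all windows. A Vegfa window held 1 match of it. That window, chr17:46025164-46025413, lies inside the gene, and the window upstream of the gene held 0.

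In the young library Kdr, Flt1, Tek and Tie1 transcripts were almost entirely in endothelial-like cells, a class of 316 young and 25 old cells. Of the 3898 young Kdr UMIs, 98.2% were in these cells, which held 1.44% of all UMIs, and the shares were 97.9% for Flt1, 98.5% for Tek and 97.8% for Tie1. Of the 4415 Nrp1 UMIs, 42.7% were there. In the old library the shares were 81.6% for Kdr, 74.4% for Flt1, 97.8% for Tek, 98.5% for Tie1 and 2.71% for Nrp1. The class was named from a marker list that includes Plvap, Emcn, Eng and Pecam1, so their presence is no separate check of the name. Plvap had UMIs in 98.7%, Emcn in 98.1%, Eng in 97.8% and Pecam1 in 95.9% of the young cells. Each of these genes was in 72.0% of the old cells. Cldn5, a tight-junction gene of endothelium, was in only 8.23% of the young cells. The proximal tubule transporter gene Slc34a1 reached 879 CPM in the young endothelial-like cells against 3834 CPM in young proximal tubule-like (PT-like) cells.

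In young endothelial-like cells, Kdr reached 1824 CPM (1767–1883) with UMIs in 97.2% of cells, against 0.502 CPM in all other young cells. Flt1 reached 2154 CPM (2092–2218) with UMIs in 97.8% of cells, against 0.676 CPM elsewhere. The angiopoietin receptor gene Tek reached 647 CPM (613–683) in endothelial-like and 0.146 CPM in other cells, and its partner Tie1 reached 379 CPM (353–406) and 0.125 CPM. Nrp1 reached 900 CPM (859–941), but other cells held 17.6 CPM. At an equal depth of 1000 UMIs per cell, transcripts were seen in 80.3% of the cells for Kdr, 86.8% for Flt1, 58.2% for Nrp1, 46.1% for Tek and 33.6% for Tie1. On the log2 scale the ratio of endothelial-like to other cells was 11.83 (11.49–12.19) for Kdr, 11.64 (11.35–11.94) for Flt1, 12.11 (11.49–12.81) for Tek, 11.56 (10.89–12.32) for Tie1 and 5.67 (5.59–5.76) for Nrp1. All 5 receptors were past a 2-fold higher level, as were 22.7% of the 13441 genes with at least 100 UMIs in this comparison. Both measured ligands stood the other way, with Vegfa at a log2 ratio of -2.10, and 20.8% of genes were at least 2-fold lower.

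**Figure D1:**
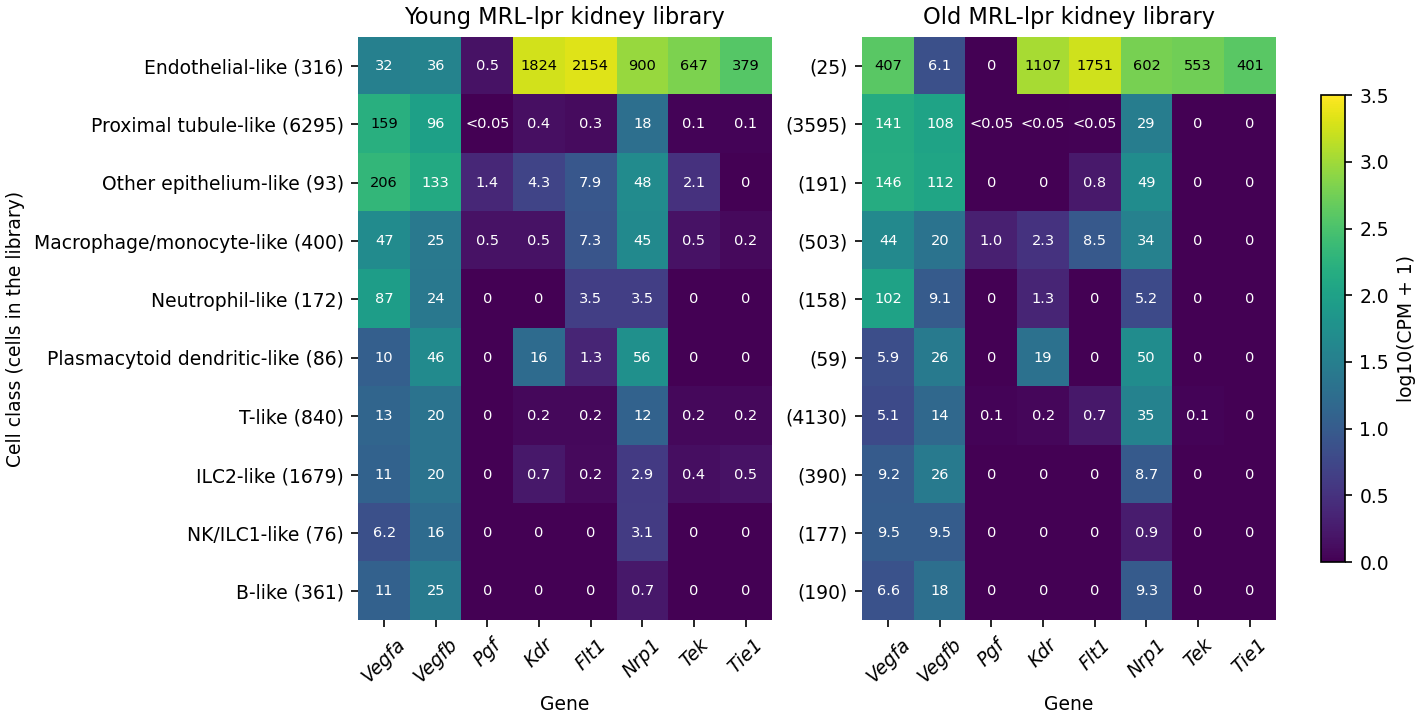
Level of the 8 genes (columns) in 10 cell classes (rows, with the number of cells) of the young library on the left and the old library on the right; colour is log10(CPM + 1) and the printed number is CPM. The 5 receptors peak in endothelial-like cells of both libraries, Vegfb and young Vegfa peak in tubule classes, and the Vegfa value of 407 in old endothelial-like cells came mostly from cells outside the gate on endothelial genes.

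The map of levels by class also shows the few other cells with receptor UMIs. Plasmacytoid dendritic-like cells, which make type I interferon, held Kdr at 15.7 CPM (8.13–27.5) in the young library, from 12 UMIs in 10 of 86 cells. In the old library the value was 19.1 CPM (10.2–32.6), from 13 UMIs in 10 of 59 cells. B-like cells of both libraries held no Kdr UMI among 361 young and 190 old cells, which allows up to 2.01 and 1.98 CPM. Macrophage or monocyte-like cells held Flt1 at 7.30 CPM (4.92–10.4) in the young library and at 8.51 CPM (6.60–10.8) in the old one. An unnamed cluster led by Il1rn, Acod1, Csf3r and S100a9 held Flt1 at 29.4 CPM (16.5–48.5) in 47 young cells and at 6.28 CPM (2.71–12.4) in 63 old cells. In PT-like cells Kdr and Flt1 were at 0.384 and 0.279 CPM in the young library, where endothelial-like cells were many, and at 0.0150 and 0.0449 CPM in the old library, where they were few.

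Across single young endothelial-like cells, Kdr had a median of 2025 CPM and a highest value of 6710 CPM, and Flt1 had a median of 2406 CPM and a highest value of 5537 CPM. Median levels were 948 CPM for Nrp1, 683 CPM for Tek and 385 CPM for Tie1. UMIs of all 5 receptors were present in 238 of 316 cells (75.3%), of 4 receptors in 58 cells and of none in 1 cell. This count depends on depth, and with 1000 UMIs drawn from each cell 9.21% of 304 cells still showed all 5. In the 295 cells with at least 2000 UMIs, the Spearman correlation of CPM across cells was 0.57 for Kdr with Flt1, 0.485 for Kdr with Nrp1, 0.45 for Flt1 with Nrp1 and 0.41 for Flt1 with Tek. The remaining 6 pairs lay between 0.13 and 0.21, Tek with Tie1 included at 0.21. These cells come from 1 library and share its depth and its tubule RNA, so the correlations are a description only.

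**Figure D2:**
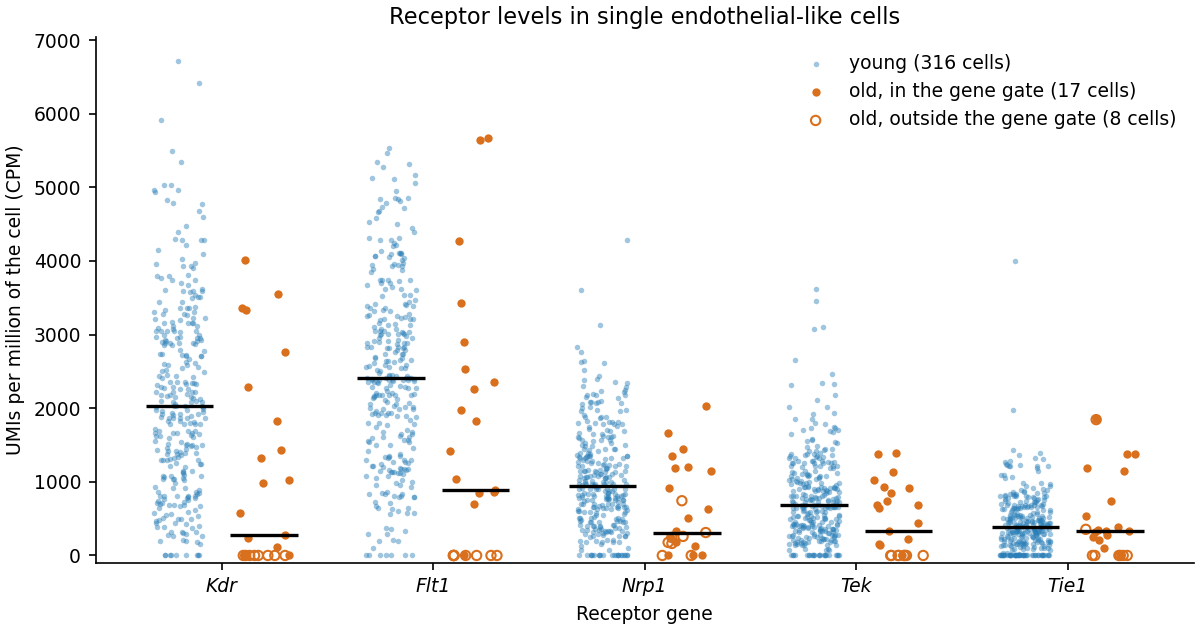
CPM of each receptor gene (x axis) in single endothelial-like cells (y axis); blue points are young cells, filled orange points are old cells that passed a gate on endothelial genes, open orange points are old cells outside it, and black bars are medians over all cells of the library. The open points lie at 0 for Kdr, Flt1 and Tek, and the young Kdr median is 2025 CPM.

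Most young endothelial-like cells carried Ehd3, a gene of glomerular capillaries, together with Plvap, a gene of fenestrated capillaries. Only 2 young cells and 1 old cell had Ehd3 without Plvap, so the 2 genes did not part the cells into glomerular and peritubular groups. Among young cells, 237 had both genes and 75 had Plvap alone. Kdr was at 1915 CPM in the first and 1395 CPM in the second, a log2 ratio of 0.46 (0.32–0.59). Flt1 was at 2192 and 1973 CPM, a log2 ratio of 0.15 (0.04–0.27). The ratio was 0.15 (-0.02–0.33) for Nrp1, -0.03 (-0.23–0.17) for Tek and -0.12 (-0.38–0.15) for Tie1, intervals that include 0. Among the 11 and 7 old cells of these kinds, Kdr was at 1616 and 950 CPM, a log2 ratio of 0.77 (0.27–1.29), and Tek was at 923 and 372 CPM, a log2 ratio of 1.31 (0.55–2.15). This split was chosen after the data had been seen.

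Arterial genes gave another split. At least 2 of the arterial genes Gja5, Gja4, Sox17, Sema3g and Fbln5 were present in 42 young and 0 old endothelial-like cells. In the young arterial cells Kdr was at 2144 CPM against 1779 CPM in the others, a log2 ratio of 0.27 (0.14–0.40). Nrp1 was at 1078 against 874 CPM, a log2 ratio of 0.30 (0.11–0.49), and Tie1 at 485 against 363 CPM, a log2 ratio of 0.42 (0.13–0.69). Flt1 and Tek had log2 ratios of 0.06 (-0.07–0.18) and 0.00 (-0.24–0.23). No endothelial-like cell had 2 of the lymphatic genes Prox1, Lyve1 and Mmrn1.

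Old endothelial-like cells numbered 25, and 8 of them failed a gate that asked for at least 3 of Pecam1, Cdh5, Emcn, Egfl7, Esam and Cldn5 and no UMI of the leukocyte gene Ptprc. Of these 8 cells, 1 carried the stromal genes Dcn and Col1a1, and none held a UMI of Kdr, Flt1 or Tek. The podocyte genes Nphs1, Wt1, Podxl and Synpo together stood at 6615 CPM in these 8 cells and at 787 CPM in the 17 others, with Nphs1 and Wt1 in 4 and 5 of the 8 and in 1 and 0 of the 17. Over the whole cluster the 4 genes were at 2249 CPM in old and 841 CPM in young cells, the latter mostly Podxl, which endothelium also expresses, and no Nphs1 or Wt1 UMI was in a young cell. Over the whole cluster Kdr was at 1107 CPM in old against 1824 CPM in young cells, a log2 ratio of -0.72 (-0.94 to -0.51), Flt1 was at 1751 against 2154 CPM, -0.30 (-0.48 to -0.13), and Nrp1 was at 602 against 900 CPM, -0.58 (-0.89 to -0.29). Tek had a ratio of -0.23 (-0.55–0.08) and Tie1 of 0.08 (-0.30–0.45). None of the 5 receptors was past 2-fold, where 3.61% of 4292 genes were at least 2-fold higher and 11.4% at least 2-fold lower.

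The gene gate, applied to all cells in place of the cluster, took 300 young and 17 old cells, of which 295 and 17 belonged to the cluster. Kdr was at 1477 CPM in old and 1788 CPM in young cells, a log2 ratio of -0.28 (-0.50 to -0.06). Flt1 had a ratio of 0.15 (-0.03–0.32), Nrp1 of -0.28 (-0.60–0.03), Tek of 0.23 (-0.09–0.54) and Tie1 of 0.47 (0.08–0.84). Kdr was lower in the old cells under both selections, while the direction of Flt1 and Tek depended on the selection. Tubule RNA moved with these comparisons, since 8 proximal tubule markers summed to 12540 CPM in the young cells of the cluster against 845 CPM in the old, and to 15063 against 901 CPM in the gate, and its part in them was not tested. The gate uses no receptor gene, and 3.88% and 13.0% of genes were at least 2-fold higher and lower with it.

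**Figure D3:**
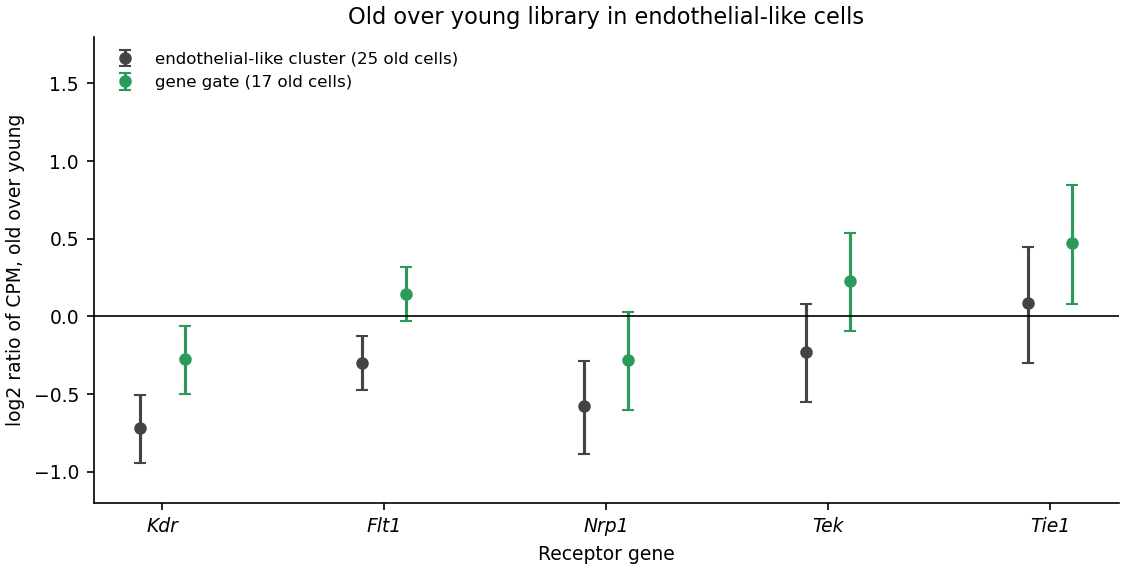
Log2 ratio of CPM, old over young library, for each receptor gene (x axis) in endothelial-like cells chosen as the whole cluster or by the gene gate; bars are exact 95% intervals for counting error. Kdr lies below 0 in both selections, and Flt1 moves from -0.30 with the whole cluster to 0.15 with the gene gate.

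Vegfa in the endothelial-like cluster needed the same care. It was at 31.9 CPM in young cells, with 36.3 UMIs for every 1000 Slc34a1 UMIs against 41.5 in PT-like cells. The part of tubule RNA in this level was not tested. In old cells Vegfa was at 407 CPM (316–517), but 66 of its 67 UMIs were in the 8 cells outside the gene gate. These cells held most of the podocyte gene UMIs, and their part in the Vegfa level was not tested. With the gate, which left 1 old UMI, the log2 ratio of old over young went from 3.67 to -2.17 (-7.49–0.35), at 8.12 CPM in old and 36.5 CPM in young cells.

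Vegfa was otherwise a gene of tubule cells. PT-like cells, with 6295 young cells the largest class of that library and with 3595 old cells, held 18222 of the 19763 young and 9404 of the 11355 old Vegfa UMIs. Their level was 159 CPM (157–161) in the young library and 141 CPM (138–144) in the old one, with UMIs in 65.5% and 62.3% of cells. Vegfb was at 96.2 CPM (94.4–98.0) and 108 CPM (105–110). The log2 ratio of old over young was -0.18 (-0.21 to -0.14) for Vegfa and 0.16 (0.12–0.21) for Vegfb. Neither reached 2-fold, which 3.11% of 12301 genes passed as higher and 2.3% as lower. The sign of the Vegfa difference was not stable. Old Vegfa was higher in 3 of 9 PT-like clusters, and with the cells divided by the share of UMIs that was Malat1 the ratio was 0.11 at 3% or more and -0.025 under 3%. It took the opposite sign in cells with Xist and no Y-linked UMI, at 0.11 (0.03–0.19), while cells with Y-linked and no Xist UMI gave -0.25 (-0.29 to -0.20), and the part of sex in it was not tested.

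PT-like cells differed in Vegfa far more by cluster than by library. Across the 10 PT-like clusters of the young library Vegfa ranged from 40.7 to 287 CPM, and across the 9 old clusters with at least 50 cells from 40.2 to 298 CPM. Vegfb ranged only from 75.1 to 138 CPM and from 77.1 to 155 CPM. The 4 young clusters above 200 CPM were cluster 9, whose leading genes include the growth factor gene Hbegf, at 287 CPM, cluster 4, led by Snhg11 and Col8a1, at 268 CPM, cluster 13, led by Cyp4a14 and Prlr, at 252 CPM, and cluster 12, led by Vmn1r18 and F3, at 239 CPM. Cluster 6, led by Ttr and Ang, stood at 155 CPM. The lowest was cluster 21, led by Serpina1f and Slc22a19, at 40.7 CPM, followed by cluster 8, led by Ccl28, at 43.6 CPM. The proliferating cluster 16, led by Pbk and Rrm2, held Vegfa at 91.9 CPM and the highest young Vegfb level, 138 CPM. The same 4 clusters were above 200 CPM in the old library.

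The clusters with high Vegfa were those with high Malat1 and Neat1, long noncoding RNAs that stay in the nucleus, and high Fos, an immediate early gene that tissue dissociation can induce. Malat1 lay between 56618 and 105849.7 CPM in the 4 young clusters above 200 CPM of Vegfa, at 72772 CPM in cluster 6, and between 4246 and 24218 CPM in the 5 below 100 CPM. The Pearson correlation of log2 CPM across clusters was 0.957 over 10 young and 0.930 over 9 old clusters for Vegfa with Malat1, and 0.018 and -0.239 for Vegfb with Malat1. For Vegfa with Neat1 it was 0.960 and 0.938, and for Vegfa with Fos 0.920 and 0.934. The relation was not particular to Vegfa, since Nrp1 gave 0.518 and 0.796 with Malat1 and 0.642 and 0.872 with Fos. Vegfa with the tubule gene Slc34a1 gave 0.604 and 0.779. Fos lay between 1056 and 1558 CPM in the 4 young clusters above 200 CPM of Vegfa and between 70.6 and 829 CPM in the 5 below 100 CPM. Clusters of 1 library share its cells and its RNA quality, and these values are descriptive. When single PT-like cells were instead binned by the share of their UMIs that was Malat1, Vegfa was at 37.2 CPM in 3148 young cells under 1%, 144 CPM from 1 to 3%, 198 CPM from 3 to 6% and 308 CPM in 2185 cells at 6% or more. The old library gave 39.4, 166, 219 and 316 CPM in the same bins, above the young value in each, although over all PT-like cells it was lower. Vegfb went the other way, from 106 CPM in the lowest to 78.3 CPM in the highest young bin and from 119 to 81.8 CPM in the old library. Cells of the lowest and highest young bin had medians of 5.54% and 5.91% mitochondrial UMIs and of 11532.5 and 16068 UMIs in all, and in the old library 4.29% and 5.83% and 12964 and 16730 UMIs. The part of RNA quality, dissociation and depth in the relation was not tested.

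**Figure D4:**
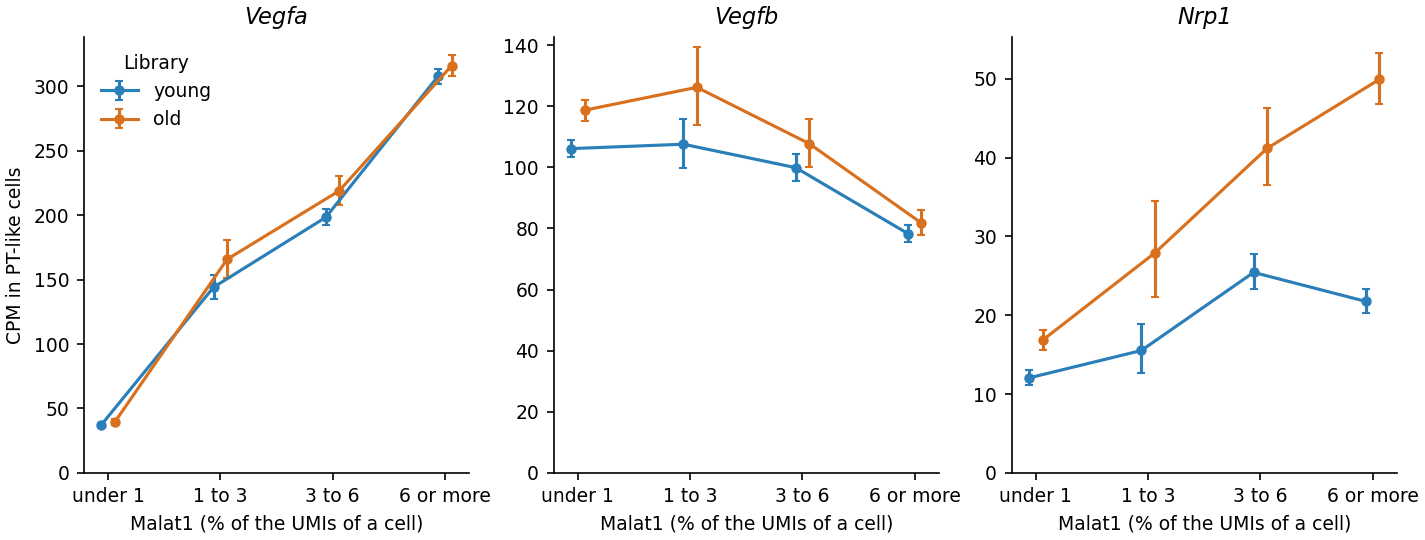
CPM of Vegfa, Vegfb and Nrp1 (panels, y axis) in PT-like cells grouped by the share of their UMIs that was Malat1 (x axis), in the young and old libraries; bars are exact Poisson 95% intervals. Vegfa climbs from 37.2 to 308 CPM in the young and from 39.4 to 316 CPM in the old library. Its old value is higher in each bin, but the intervals overlap except from 3 to 6%. Nrp1 is also higher in the old library in every bin.

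Segments of the proximal tubule could be compared with Malat1 in view. Cells with at least 2 UMIs and a majority of the early-segment (S1 or S2) transporter genes Slc5a2 and Slc5a12 held Vegfa at 199.5 CPM in the young library and at 180 CPM in the old one. Those with a majority of the late-segment (S3) genes Slc7a13 and Slc5a8 held 120 and 105 CPM, and the log2 ratio of early over late was 0.73 (0.68–0.77) and 0.78 (0.71–0.84). Within the bins the order changed. In young cells Vegfa was at 41.4 CPM early and 34.4 CPM late under 1% Malat1, 168 and 128 CPM from 1 to 3%, 194 and 200.2 CPM from 3 to 6% and 299.7 and 323 CPM at 6% or more. In old cells the pairs were 43.6 and 37.9, 167 and 153, 218 and 238, and 306 and 338 CPM. By value the early segment was thus above the late one in the lower bins and below it in the upper bins. The intervals of the segments overlapped in the young bin from 3 to 6% and in all old bins but the highest. The Malat1 share of the cells moved with the difference over all cells. Early-segment cells at 6% or more numbered 1442 of 3183 young, and late-segment cells 528 of 2286.

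PT-like cells with a UMI of Havcr1, which encodes the injury marker KIM-1, held less Vegfa in the young library, at 78.7 CPM in 227 cells against 165 CPM in 6068 cells without it, a log2 ratio of -1.07 (-1.19 to -0.96). The old library had 127 CPM in 159 cells and 142 CPM in 3436 cells, a ratio of -0.16 (-0.29 to -0.03). Vegfb was at 81.8 against 97.2 CPM in the young and 80.9 against 109 CPM in the old library. It was thus lower with Havcr1 in both. The parts of Malat1 share, depth and cluster in these differences were not tested.

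Tubule cells of the distal nephron also held transcripts of both ligands. Other epithelium-like cells, 93 young and 191 old, held Vegfa at 206 CPM (183–232) and 146 CPM (135–159), a log2 ratio over PT-like cells of 0.37 (0.20–0.54) in the young and 0.05 (-0.07–0.18) in the old library. Vegfb was at 133 CPM (114–153) and 112 CPM (102–123), with log2 ratios of 0.47 (0.25–0.67) and 0.06 (-0.08–0.20). Neither ligand was past 2-fold in either direction, against 18.9% of genes higher and 8.8% lower in the young and 18.2% higher and 13.9% lower in the old library. Among cells with thick ascending limb genes Vegfa was at 234 CPM in 35 young cells and 155 CPM in 92 old ones, and among those with distal convoluted tubule genes at 280 CPM in 7 young cells and 136 CPM in 62 old ones. The young Vegfa ratio went to -0.018 when at most 10% mitochondrial UMIs were allowed and to -0.13 among cells with Malat1 at 3% of UMIs or more, where the old ratio went to -0.91, so no order of the tubule classes is read from it.

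Vegfa was also present in immune cells. Neutrophil-like cells held 87.1 CPM (64.7–115) in the young library and 102 CPM (80.9–127) in the old one. The leading genes of this class include the basophil gene Mcpt8 beside neutrophil genes such as S100a8 and S100a9, so its level is not that of neutrophils alone. Macrophage or monocyte-like cells held 47.2 CPM (40.8–54.3) and 44.1 CPM (39.6–49.0). T-like cells held only 12.7 and 5.11 CPM, ILC2-like cells 11.5 and 9.18 CPM and B-like cells 11.4 and 6.61 CPM. Tubule RNA was present in all of them, so Slc34a1 served as a gauge. Old neutrophil-like cells had 331 Vegfa UMIs for every 1000 Slc34a1 UMIs and old macrophage or monocyte-like cells had 148, against 49.9 in old PT-like cells, but T-like, B-like, ILC2-like and NK or ILC1-like cells also stood at 89.8 to 175 in that library. In the young library the neutrophil value was 101 and the macrophage value 71.4, against 41.5 in PT-like and 98.0 in T-like cells.

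The same classes were then read without any cell that carried a Slc34a1 UMI. Macrophage or monocyte-like cells held Vegfa at 41.0 CPM (30.9–53.4) in 165 young cells and 39.4 CPM (33.6–46.0) in 317 old ones. UMIs were in 21.8% and 21.5% of them. Neutrophil-like cells chosen by neutrophil genes, with those marked by basophil or mast cell genes left out, held 55.1 CPM (26.4–101) in 71 young cells. In 98 old ones the value was 98.6 CPM (70.1–135). The unnamed cluster led by Il1rn and Csf3r held 12.5 CPM from 2 UMIs in 16 young cells and 61.9 CPM (45.5–82.3) in 41 old ones. Macrophage Vegfb was at 14.2 CPM in these young cells against 25.3 CPM over the class, and at 8.13 against 20.2 CPM in the old ones. Cells without Slc34a1 were chosen after the data had been seen. Tubule RNA can remain in a cell without a Slc34a1 UMI, and T-like and B-like cells were not read this way. The part of tubule RNA in these levels was therefore not tested.

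Pgf, whose product binds FLT1, was barely measured, with 8 young and 12 old UMIs in all. Macrophage or monocyte-like cells held 2 of the young and 8 of the old UMIs, the latter in 8 of 503 cells at 1.02 CPM. At this depth no comparison of Pgf between classes or libraries was made.

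Nrp1 was the receptor gene with most of its UMIs outside the endothelium. It was at 47.8 CPM (37.1–60.7) in young and 48.9 CPM (42.2–56.2) in old other epithelium-like cells, at 56.4 CPM (40.8–75.9) and 49.9 CPM (34.5–69.7) in plasmacytoid dendritic-like cells and, for macrophage or monocyte-like cells, at 44.5 CPM (38.3–51.4) and 33.7 CPM (29.7–38.0). Within each library the intervals of the first 2 classes overlapped. ILC2-like cells held 2.92 and 8.70 CPM and B-like cells 0.671 and 9.26 CPM. Nrp1 is also known as a surface protein of thymus-derived regulatory T cells.

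In PT-like cells Nrp1 was at 17.7 CPM (16.96–18.5) in the young library and 29.1 CPM (27.8–30.4) in the old one, a log2 ratio of 0.71 (0.62–0.80). The value is past 1.5-fold, as were 5.99% of 12301 genes in that direction. It was higher in the old library in all 9 PT-like clusters with at least 50 cells in it, with log2 ratios from 0.26 to 1.12 and a median of 0.64, and in 8 the interval lay above 0. The ratio was 0.58 in cells with Xist and 0.80 in cells with Y-linked UMIs. It was higher in every Malat1 bin as well, from 12.0 against 16.8 CPM under 1% to 21.8 against 49.9 CPM at 6% or more. In Havcr1 cells Nrp1 was at 10.2 CPM in the young library and 43.7 CPM in the old one.

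T-like cells held Nrp1 at 11.5 CPM (8.75–14.9) in the young library and 34.7 CPM (32.4–37.1) in the old one. Cells with a UMI of Foxp3, the transcription factor gene of regulatory T cells, stood above the other T-like cells, at 107 CPM (85.8–131) in 127 old cells against 32.0 CPM in 4003, a log2 ratio of 1.74 (1.40–2.05). In the young library the values were 59.7 CPM (33.4–98.4) in 38 cells and 8.99 CPM in 802, a ratio of 2.73 (1.78–3.61). The young ratio was 0.95 without doublets and -0.44 with clusters at a resolution of 0.4, where the old one was 0.43. Most of the old Nrp1 was nevertheless in cells without a Foxp3 UMI. Such a UMI can be missed in a cell that expresses the gene, so these cells need not lack Foxp3. The T-like cluster 7, led by Mcpt1, Tnfsf8, Mcpt2, Tnfrsf4 and Cd40lg and with Il21, Cd4 and Cd163l1 among its 10 leading genes, with 198 young and 1002 old cells, held 681 of the 834 old T-like UMIs. Its Nrp1 was at 21.4 CPM (14.0–31.4) for young and 123 CPM (114–132) for old cells, a log2 ratio of 2.52, where 4.79% of 6640 genes were at least 2-fold higher and 4.7% at least 2-fold lower. Within this cluster in the old library, cells with Foxp3 were at 129 CPM (101–163) and cells without at 122 CPM (113–132), a log2 ratio of 0.08. In the young library the ratio within it was -0.55 (-5.91–2.06), from 1 UMI in 16 cells with Foxp3. Cells of the cluster with Cd4 and without Foxp3 held 92.7 CPM (44.5–170.5) in 17 young cells and 143 CPM (131–156) in 653 old ones, a log2 ratio of 0.63 (-0.27–1.69). Cells of the cluster with neither Cd4 nor Foxp3 numbered 165 of 198 young and 249 of 1002 old, at 14.4 and 63.4 CPM, so the makeup of the cluster moved with its Nrp1 difference and its part in it was not tested. The other big T-like clusters, 1 and 2, stood at 12.4 and 3.05 CPM in the old library.

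**Figure D5:**
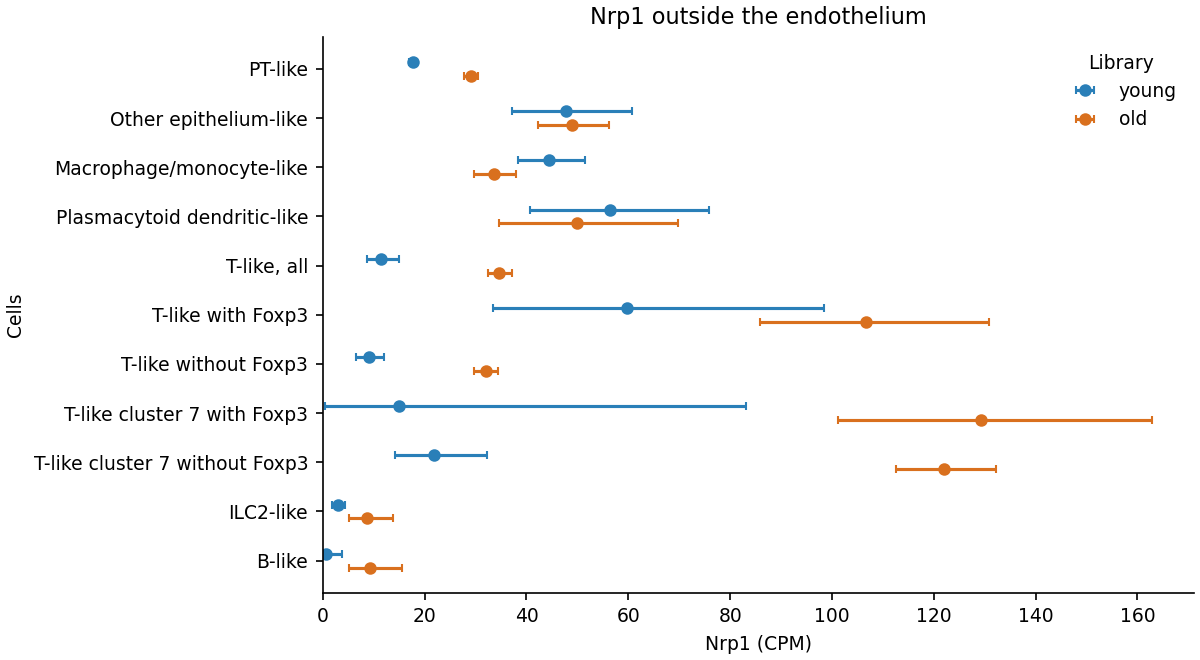
Nrp1 in CPM (x axis) in cell classes and T-like subsets (y axis) of the young and old libraries; bars are exact Poisson 95% intervals. PT-like and T-like cells are higher in the old library. In cluster 7 of the old library cells with and without a Foxp3 UMI sit at 129 and 122 CPM.

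Other genes of these pathways were counted from fixed lists in young endothelial-like over PT-like cells, where 28.1% of 12088 genes were at least 2-fold higher and 20.2% at least 2-fold lower, with a median log2 ratio of 0.30. Of the 41 listed genes with at least 100 UMIs, 26 were at least 2-fold higher and 7 at least 2-fold lower. All 7 other receptors and partners were higher, with a median of 10.04. They include the VEGF-C receptor gene Flt4 at 118 CPM against 1 UMI in PT-like cells, a log2 ratio of 13.72 (11.23–19.03), the phosphatase gene Ptprb, which acts on TEK, at 1074 against 0.114 CPM, Nrp2 at 323 against 0.148 CPM, and the semaphorin receptor gene Plxnd1 at 220 against 0.21 CPM. All 5 endothelial genes downstream of VEGF were higher. Esm1, which encodes the secreted proteoglycan endocan, was at 1341 against 0.253 CPM. The apelin receptor gene Aplnr was at 212 CPM, the Notch ligand gene Dll4 at 96.3 CPM and the nitric oxide synthase gene Nos3 at 61.0 CPM. This list and that of endothelial transcription factors were picked as endothelial genes, so their direction here is no separate result. Genes such as Flt4 reached 100 UMIs only through the endothelial-like cells. Of the 9 endothelial transcription factors 6 had enough UMIs, and these were higher too. Sox18 at 478 CPM, Gata2 at 78.2 CPM, Fli1 at 155 CPM and Ets1 at 340 CPM were the 4 with the largest ratios. PT-like cells held 2.43 CPM of Ets1 and under 1 CPM of the other three.

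Other ligands were divided. The semaphorin genes Sema3g, Sema3f and Sema3d were higher in endothelial-like cells, at 151, 193 and 67.2 CPM, and so was Vegfc, the ligand of FLT4, at 30.03 against 2.82 CPM. Angpt1, the activating ligand of TEK, stood higher in PT-like cells, at 10.7 CPM against 1 endothelial-like UMI, a log2 ratio of -4.49 (-9.80 to -2.01), and Sema3b and Sema3c were also higher there. Of the 7 oxygen-sensing genes 3 were past 2-fold, all higher. Epas1, which encodes HIF-2α, was at 470 against 12.8 CPM, Egln3 at 20.02 against 1.61 CPM and Arnt at 43.4 against 18.1 CPM. Hif1a was at 103 against 61.5 CPM, a log2 ratio of 0.74. Among 9 hypoxia targets the glucose transporter gene Slc2a1 was past 2-fold higher, and Bnip3, Ndrg1, Car9 and Pgk1 were past 2-fold lower, the list median being -0.93.

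Between libraries, 0 of 27 listed genes with enough UMIs were at least 2-fold higher and 2 lower in PT-like cells, where 3.11% and 2.3% of all genes were, and 3 of 27 were higher and 4 lower in the endothelial gene gate, where 3.88% and 13.0% were. In PT-like cells none of the 7 oxygen-sensing genes was among them, and Ankrd37, a hypoxia target, was lower at 1.05 CPM in old against 2.79 CPM in young cells, as was the flow-responsive factor gene Klf2 at 28.4 against 59.3 CPM. In cells of the endothelial gene gate Aplnr was lower by value in the old library, at 56.8 against 210 CPM. Dll4 was also lower by value, at 40.6 against 96.0 CPM, a log2 ratio of -1.24 (-2.88–0.00) whose interval reaches 0. By value Nos3, Sema3f and Sema3d were higher, at 129.9 against 61.9, 454 against 187 and 333 against 65.8 CPM. The old gate held only 17 cells, in which 1 UMI stood at 8.12 CPM. The old levels of Aplnr, Dll4 and Nos3 therefore rest on few UMIs. Sema3g was higher in the old library over the cluster, at 711 against 151 CPM, and lower in the gate, at a log2 ratio of -3.21 (-6.27 to -1.35). Of its old UMIs 117 were in the cluster and 2 in the gate. Ndrg1 was at 146 CPM in old against 687 CPM in young cells of the gate. The tubule gene Slc34a1 was also lower in old cells of the gate, at 64.9 against 950 CPM, and the part of tubule RNA was not tested.

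Genes whose levels ran most like those of the 8 genes were sought across class and library points, by the Pearson correlation of log2(CPM + 1) among 14644 genes. The rule took classes with at least 50 cells in each library, which left out endothelial-like cells and gave 20 points. Over these points Vegfa ran with Amot (0.965), Dstn (0.965) and Cd63 (0.959), and Vegfb with Coq9 (0.944), Ndufa12 (0.941) and Jmjd8 (0.936). Nrp1 ran with Pkdcc (0.877), Tspan31 (0.858) and Sqle (0.832). Kdr and Tek had few UMIs outside the endothelium, so their partners on these points, led by Cdh5 (0.944) and Slc26a4 (0.862), rest on sparse counts. With the young endothelial-like cells added as a point, a choice made after the data had been seen, Kdr ran with Cdh5 (0.964), Plvap (0.949) and Thsd1 (0.947) and Tek with Cyp26b1 (0.992), Ldb2 (0.991) and 3110099E03Rik (0.991), correlations that rest on that 1 point. Nrp1 then ran with Pls3 (0.845), B4galt4 (0.836) and Arhgef10 (0.824). For Vegfa the 3 genes became Cd63, Lgr4 and Vldlr, and for Vegfb Poldip2 (0.934) replaced Jmjd8.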

How the data were processed

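The deposited counts are UMIs per gene and cell barcode, which the authors made with Cell Ranger 3.1.0 on mm10 from 10x 3′ v3.1 libraries of pooled kidneys, 1 per age, without normalization. The young matrix had 15076 barcodes with 156787812 UMIs and the old matrix 12622 with 126334256, and 41 barcode sequences occurred in both. Barcodes with at least 200 genes and no more than 20% mitochondrial UMIs were analysed, 11429 young and 10232 old.

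Following the methods of the study, Seurat 5.3.0 (R 4.3.3) was used with a scale factor of 10000, 2000 variable genes, 20 integration dimensions and 10 principal components. The resolution, which the study does not give, was left at 0.8 and gave 29 clusters. The 58 genes of the lists were left out of the clustering features. Scrublet (Scanpy 1.11.5) called 328 young and 246 old doublets, which were kept. Clusters took a class name with at least 3 detected markers, under a rule written once the clusters were known. One gene of the marker lists is not reported here. Clusters 11, 15, 25, 26 and 28 stayed unnamed.

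CPM has exact Poisson, shares of cells exact Clopper-Pearson and log2 ratios exact binomial 95% intervals (Python 3.11.15, NumPy 2.4.6, SciPy 1.17.1, pandas 2.3.3, Matplotlib 3.10.9). All cover counting error only, and a count of 0 was given a limit of 3 counts. Shares at equal depth used 1000 UMIs drawn per cell. The ratio step was tested on simulated data. The members and lists were chosen with earlier results of these data known. All 8 members were named, and so were the 3 genes most like 5 of them and up to 4 genes a list past 2-fold. Positions are from GENCODE M21 and promoters from RefSeq on GRCm38.p6. Alternatives were other resolutions, no doublets, stricter filters, no integration, a gene gate, other totals, mean CPM of cells and sex-linked selections.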

Additional observations from a re-analysis of the deposited data

Results flagged for a closer look

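With 1 library per age no group had enough samples to look for an outlying one, and the differences below were not tested. Vegfa in PT-like cells had a log2 ratio of old over young of 0.11 in cells with Xist and of -0.25 in cells with Y-linked UMIs, opposite signs within the same class.

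Vegfb was higher in the old library in PT-like cells, at 0.16 on the log2 scale, and lower in T-like cells, at -0.55. Nrp1 moved in opposite directions across classes, with ratios of 0.71 in PT-like, 1.59 in T-like and 1.57 in ILC2-like cells, and of -0.40 in macrophage or monocyte-like cells. The ratio of Nrp1 in PT-like cells with Havcr1 over those without was -0.84 in the young and 0.64 in the old library.

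Barcodes set aside by the filters, 3647 young and 2390 old, also held transcripts of these genes. Vegfa was at 124 CPM in the young set and 87.0 CPM in the old set, Vegfb at 38.4 and 36.1 CPM and Nrp1 at 18.4 and 19.1 CPM. The young set held Kdr at 2.24, Flt1 at 3.59, Tek at 1.17 and Tie1 at 0.898 CPM, and 4 of its barcodes had at least 3 endothelial genes, against 0 in the old set.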

How the results depend on the processing

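No paired analysis was possible because each age has 1 library and no test was made, and no library could be left out. Of 404 values recomputed under alternative settings, 308 stayed within their interval (counts within 1.5 times), 77 moved and 19 were counted as reversed. The cause was not tested. These are not counts of sign, since values within a wide interval, or moved, could also have the opposite sign. For old Tek in Ehd3 over Plvap cells, all 10 alternatives counted as within the interval, with log2 ratios from -2.92 to 1.31. The number of pathway genes past 2-fold in young endothelial-like over PT-like cells, 33, ranged from 26 (past 4-fold) to 36 (50 or more summed UMIs). Settings on Malat1, Ehd3 with Plvap and cluster 7 were chosen after seeing the data. All values that follow are log2 ratios.

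The median of the 5 receptors in young endothelial-like over other cells, 11.64, was 12.04 without doublets and 10.02 by gene gate. For other epithelium-like over PT-like cells in the young library, Vegfa (0.37) was 0.065 at a resolution of 0.4, -0.018 with at most 10% mitochondrial UMIs, 0.10 without integration and -0.13 with Malat1 at 3% or more, and Vegfb (0.47) was 0.20 at 0.4 and 0.028 at 10%. In the old library Vegfa (0.05) was -0.10 at 0.4, 0.22 without doublets, -0.17 at 10%, 0.20 with at least 500 genes, 0.33 as a mean of cells and -0.91 with Malat1 at 3% or more, and Vegfb (0.06) was -0.11 at 0.4, -0.38 at 10%, -0.10 without integration and 0.28 with Malat1 at 3% or more.

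For old over young endothelial-like cells the receptor median (-0.30) was -0.48 at 10%, 0.0030 with 500 genes, 0.048 without integration, 0.15 by gene gate, -0.75 as a mean of cells and -0.0016 with Xist. Flt1 was 0.0030 with 500 genes, 0.048 without integration, 0.15 by gene gate and 0.32 with Xist. Vegfa (3.67) was -0.71 without doublets, -2.09 with 500 genes, -2.05 without integration and -2.17 by gene gate. In PT-like cells Vegfa (-0.18) was 0.11 with Xist, -0.25 with Y-linked UMIs, 0.11 with Malat1 at 3% or more and -0.025 under 3%, and Vegfb (0.16) was 0.030 with Xist and 0.046 with Malat1 at 3% or more.

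For Ehd3 over Plvap cells, which rests on 2 young and 1 old cell, young Tek was -0.031 with Ehd3 and Plvap together, and at 10% old Kdr was -0.95 and the old median of 4 receptors -1.61. Nrp1 in Foxp3 over other T-like cells was, in the old library (1.74), 0.43 at 0.4, 1.22 without doublets, 1.24 with 500 genes, 2.31 without integration and 0.084 within T-like cluster 7, and in the young library (2.73) -0.44 at 0.4, 0.95 without doublets and -0.55 within that cluster.

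Depth limits Pgf, with 8 young and 12 old UMIs, and the number of cells limits the values of the 25 old endothelial-like cells.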

Other observations

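An unnamed cluster of 35 young and 44 old cells led by Upk3a, Upk1b, Upk2 and Krt19, genes of the urothelium that lines the renal pelvis, held Vegfa at 59.5 CPM (40.4–84.4) and 71.0 CPM (55.8–89.0) and Vegfb at 49.9 CPM (32.6–73.1) and 51.1 CPM (38.4–66.7). Its Nrp1 was at 3.84 and 2.84 CPM, and no UMI of Kdr, Flt1, Tek or Tie1 was seen in it.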
